A study of Rattus norvegicus with 8 samples.

Results

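Myom2 and Synpo2l are a pair of genes known from striated muscle. They lay among the 10 genes with the largest rises in the glomerular RNA of Dahl rats over that of SHR rats. To ask whether the pair came with other muscle transcripts or stood alone, 8 further genes of skeletal muscle were set beside them. The 8 are Ckm, Acta1, Tnnt3, Tnni2, Tnnc2, Myl1, Mb and Actn3. The 10 genes are read by 11 probe sets of the 31042 tested and are 10 of the 14217 genes that the array annotation names. Tnnt3 has a pair of probe sets and every other gene has 1, and a gene with several is represented by its brightest one, by the mean of the 8 arrays. Myom2 and Synpo2l were chosen by their strain difference, so that difference is described for them and not tested.

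RNA was taken from glomeruli, the filtering units of the kidney, of male Dahl salt-sensitive rats, which become proteinuric spontaneously, and of male spontaneously hypertensive rats (SHR), which do not. By the study's methods both strains were kept on a low-salt diet, and the glomeruli were collected by magnetic retraction. There were 4 groups of 2 rats, each rat on an array of its own: Dahl at 6 weeks, Dahl at 4 weeks, SHR at 6 weeks and SHR at 4 weeks. The strains are separate inbred lines without a shared parental control, so the Dahl and SHR genetic backgrounds differ as a whole. All values below are deposited log2 values of a probe set, on which a difference of 1 is a doubling. The medians of the 8 arrays lay between 4.11 and 4.16. The 12 measured podocyte markers lay between 5.65 and 13.19 on all arrays, and podocytes are a defining cell type of the glomerulus. Tubular signal was present too: the 24 measured proximal tubule markers had a median value of 10.86, against 10.85 for the podocyte markers.

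In a striated muscle fibre, myosin thick filaments and actin thin filaments are stacked into sarcomeres. Thin filaments are anchored at the Z-disc, thick filaments are held together at the M-band in the middle, and troponin on the thin filament passes the calcium signal on to contraction. Glomeruli hold contractile cells of another kind, the mesangial cells and podocytes, which use smooth muscle and non-muscle actomyosin. Myom2 (myomesin 2) cross-links thick filaments at the M-band. Synpo2l is an actin-binding Z-disc protein of heart and skeletal muscle, related to the podocyte protein synaptopodin.

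Stretches upstream of 3 genes are shown because the data place them at 3 different levels: Synpo2l, which was high in Dahl, Ryr1, which followed it most closely among the muscle genes, and Acta1, which stayed low everywhere. They are RefSeq sequences of the rat build GRCr8, the 250 bases before the annotated start, and capitals mark matches to motifs known from muscle promoters. The Synpo2l stretch lies at chr15:3684760-3685009 on the plus strand, that of Ryr1 at chr1:93551306-93551555 on the minus strand and that of Acta1 at chr19:68784195-68784444 on the minus strand.
Synpo2l: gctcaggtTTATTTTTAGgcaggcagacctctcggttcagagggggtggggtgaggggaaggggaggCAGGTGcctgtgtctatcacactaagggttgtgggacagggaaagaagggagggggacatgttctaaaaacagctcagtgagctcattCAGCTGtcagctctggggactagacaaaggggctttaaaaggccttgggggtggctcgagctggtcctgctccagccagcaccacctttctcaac
Ryr1: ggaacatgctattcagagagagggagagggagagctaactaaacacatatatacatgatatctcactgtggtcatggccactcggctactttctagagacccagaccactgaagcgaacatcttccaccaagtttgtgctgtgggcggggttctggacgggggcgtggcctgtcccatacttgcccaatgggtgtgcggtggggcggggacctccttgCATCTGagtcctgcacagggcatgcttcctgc
Acta1: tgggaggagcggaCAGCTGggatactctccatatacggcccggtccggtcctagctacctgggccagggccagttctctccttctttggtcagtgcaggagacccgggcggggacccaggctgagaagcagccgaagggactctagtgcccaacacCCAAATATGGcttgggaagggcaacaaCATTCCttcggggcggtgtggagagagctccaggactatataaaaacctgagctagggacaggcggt
The motifs searched on both strands were the E-box CANNTG, the MCAT motif CATTCC, the CArG box and the MEF2 motif, in the 300 bases that run from 250 before to 50 after the start. In Synpo2l a MEF2 match began 242 bases before the start, with E-boxes 183 and 95 bases before it and 1 more 35 bases after it. In Acta1 a CArG box began 94 bases before the start, a CATTCC 67 bases before it and an E-box 237 bases before it. In Ryr1 the only match was an E-box 32 bases before the start. Of all 33469 rat promoters of that length, 72.1% held the E-box, 14.2% CATTCC, 1.64% the CArG box and 3.29% the MEF2 motif, and of the 9 promoters listed for 8 of the 10 genes, 8, 1, 1 and 2 held them in that order. Myom2 and Tnnt3 were not matched in the promoter table. A match is a stretch of letters and says nothing of which factor binds there.

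Myom2 was at 9.03 and 9.61 in Dahl rats aged 6 weeks and at 8.06 and 8.37 in Dahl rats aged 4 weeks, against 4.96 and 5.69 in SHR rats aged 6 weeks and 3.41 and 2.43 in SHR rats aged 4 weeks. All 4 Dahl rats were above all 4 SHR rats, and the lowest Dahl value exceeded the highest SHR value by 2.36. The mean was 8.77 ± 0.69 in Dahl and 4.12 ± 1.48 in SHR (SD, n = 4 each). The difference over both ages was 4.64 (SE 0.31), or 25.0-fold, and only 3 of the 14217 genes had a larger one. It was 3.99 (SE 0.44, 15.9-fold) at 6 weeks and 5.29 (SE 0.44) at 4 weeks. Both SHR values at 4 weeks lay within the range of genes that belong to other organs (1.58 to 3.70 on all arrays), where a level is not told apart from background, so the size and rank of the difference over both ages and its size at 4 weeks rest in part on values that may not be measured levels. In bulk RNA, more cells of a type and more RNA per cell cannot be told apart.

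Synpo2l was at 8.02 and 9.05 in Dahl rats aged 6 weeks and at 8.65 and 7.77 in Dahl rats aged 4 weeks, against 3.65 and 3.77 in SHR rats aged 6 weeks and 3.80 and 5.25 in SHR rats aged 4 weeks. Again no Dahl value overlapped the SHR values, with a gap of 2.52, and 3 of the 4 SHR values lay near 3.70, the top of that background range. The mean was 8.37 ± 0.59 in Dahl and 4.12 ± 0.76 in SHR (SD, n = 4 each). The difference over both ages was 4.25 (SE 0.45), or 19.1-fold, ranking 9 from the top. It was 4.82 (SE 0.63) at 6 weeks and 3.68 (SE 0.63) at 4 weeks. One SHR rat, replicate 2 at 4 weeks with 5.25, stood apart from the other 3, and the difference at 4 weeks was 4.41 without it and 2.96 without the other SHR rat of that age. The choice of genes by the size of their rise had Bmp6 as its last member with 3.68, and Ifgga2l1 was just outside with 3.53.

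The 8 other genes were near the bottom of the scale in every rat, between 2.08 and 2.66. They belong to several parts of the contractile apparatus and to its energy and oxygen supply. Acta1 is the actin of skeletal muscle thin filaments, Tnnt3, Tnni2 and Tnnc2 are the subunits of fast skeletal troponin, Myl1 is a light chain of fast myosin and Actn3 the alpha-actinin of fast-fibre Z-discs. Ckm is muscle creatine kinase and Mb is myoglobin, both among the most abundant proteins of a muscle fibre. None of the 8 was called higher in Dahl by limma, and none reached an unadjusted p of 0.05 in that direction.

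**Figure D1:**
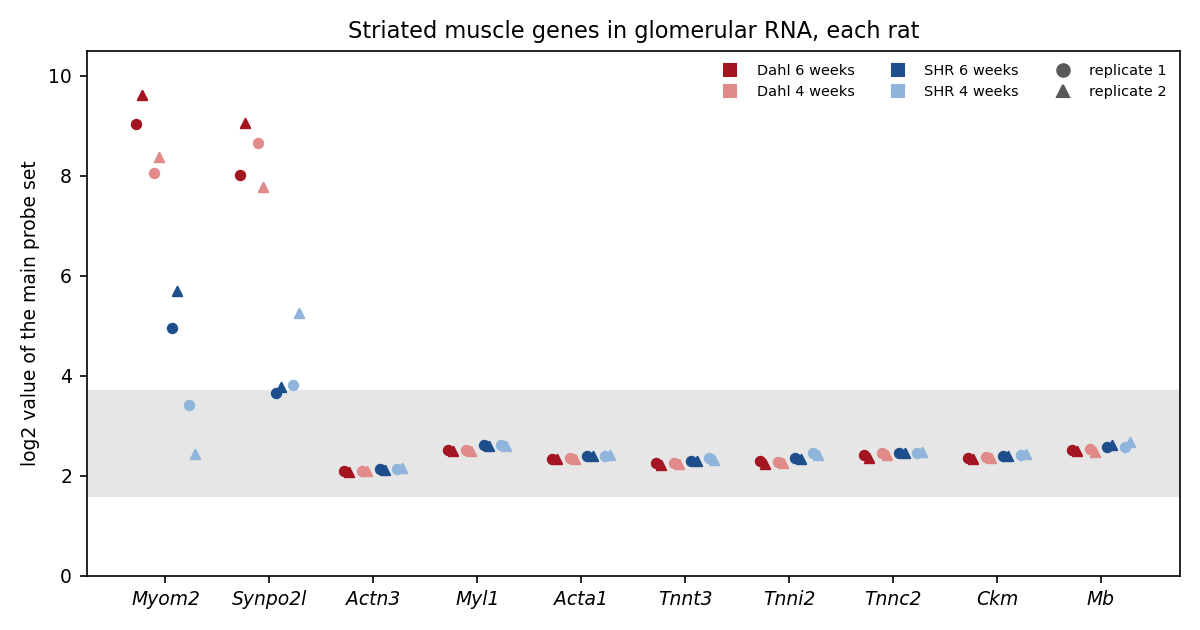
The log2 value of the main probe set (vertical axis) of the 10 muscle genes (horizontal axis) in each of 8 rats, coloured by strain and age, with circles for replicate 1 and triangles for replicate 2. The grey band runs from 1.58 to 3.70, the range of 23 genes of retina, lens, testis, pituitary and pancreas. Myom2 and Synpo2l lie above it in all 4 Dahl rats, and the other 8 genes lie inside it in all 8 rats.

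Their small differences all ran the other way. Tnni2, the inhibitory troponin subunit, was at 2.30 and 2.24 in Dahl at 6 weeks and 2.27 and 2.26 in Dahl at 4 weeks, against 2.36 and 2.34 in SHR at 6 weeks and 2.46 and 2.42 in SHR at 4 weeks. This was a difference of -0.12 (SE 0.022, adjusted p = 0.0225). Myl1 ran from 2.48 to 2.52 in Dahl and from 2.59 to 2.62 in SHR, a difference of -0.10 (SE 0.018, adjusted p = 0.0222). For Mb the ranges were 2.48 to 2.53 in Dahl and 2.58 to 2.66 in SHR (-0.11, SE 0.027, adjusted p = 0.0417).

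Both Tnnt3 probe sets gave the same picture, with -0.074 (SE 0.018, adjusted p = 0.0380) for the brighter and -0.061 (SE 0.016, adjusted p = 0.0426) for the dimmer. Ckm differed by -0.061 (SE 0.017, adjusted p = 0.0488). Acta1, Tnnc2 and Actn3 did not pass, with differences of -0.054, -0.054 and -0.044 and adjusted p-values of 0.0518, 0.0876 and 0.0788. In sum 5 of the 8 were called lower in Dahl over both ages and 0 higher, with a median of -0.067, where 34.7% of all probe sets were called, 24.2% lower and 10.6% higher, and the median of all was -0.053.

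That shift was common to dim probe sets. Every Dahl value lay below every SHR value for all 8 genes, and the same held for 87.7% of the 7761 dimmest probe sets by their mean over the arrays and for 42.1% of all probe sets. Of those dimmest probe sets 36.6% were called lower in Dahl. Genes of retina, lens, testis, pituitary and pancreas gave a yardstick from tissues absent from a glomerulus: 23 of 24 had every Dahl value below every SHR value, and those 23 lay between 1.58 and 3.70 with a median difference of -0.084. The exception was Cela1 (2.44 higher in Dahl), which was set aside after its values were seen. When the arrays were quantile normalized, none of the 8 muscle genes was called, and Ckm, Acta1, Tnnc2 and Actn3 turned to differences between 0.0055 and 0.013. Over all probe sets 4740 were then called, against 10787 in the main fit. With 1 array left out, 3 of the 8 genes were called without Dahl replicate 1 at 6 weeks, 1 without Dahl replicate 2 at 6 weeks, Dahl replicate 1 at 4 weeks or SHR replicate 1 at 4 weeks, and 0 without any of the other 4.

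**Figure D2:**
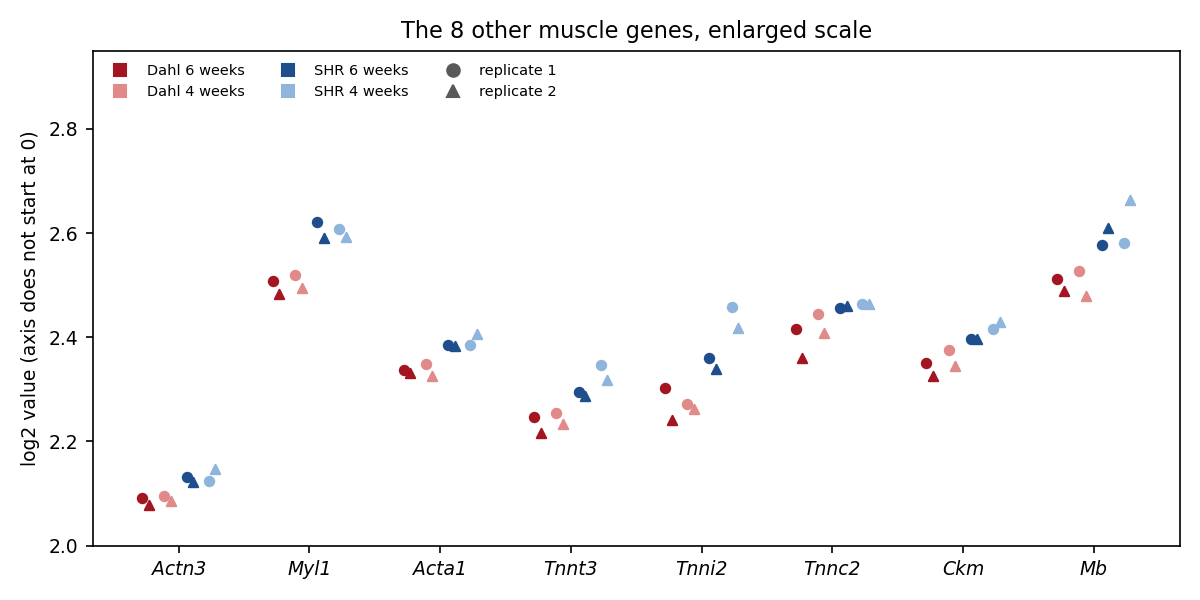
The 8 muscle genes other than Myom2 and Synpo2l on an enlarged log2 axis (vertical, not starting at 0), with 1 point for each rat, coloured by strain and age. The 4 Dahl rats lie below the 4 SHR rats for each gene, within a total range of 2.08 to 2.66.

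At a single age less passed. At 4 weeks 1 of the 8 genes, Tnni2 (-0.17, SE 0.031, adjusted p = 0.0353), was lower in Dahl and 0 were higher, where 12% of all probe sets were called, 6.41% lower and 5.63% higher. That call was lost without any 1 array other than those of Dahl at 6 weeks. At 6 weeks none of the 8 passed in limma, against 3.28% called over all probe sets (1.63% lower and 1.65% higher). Myl1 alone had an unadjusted p under 0.05 there, and 5 of the 8 passed when the variance was modelled on signal. The difference between the ages had no part in choosing the genes, so all 10 were tested for it. None passed in limma between 6 and 4 weeks in Dahl (background 0.0805%), between 6 and 4 weeks in SHR (2.42%) or for the interaction of strain and age (0.519%). At an unadjusted p under 0.05 there were 0 in Dahl, 2 in SHR (Myom2 and Tnni2) and 0 for the interaction. The shares of all probe sets at that unadjusted threshold were not counted.

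For Myom2 the difference of 6 weeks minus 4 weeks was 1.11 in Dahl (SE 0.44, adjusted p = 0.582) and 2.41 in SHR (SE 0.44, adjusted p = 0.0767). Both SHR rats aged 6 weeks were above both aged 4 weeks. With dim probe sets left out, which reduces the number of tests, the SHR value passed with an adjusted p of 0.0145. With the replicate block its adjusted p in limma was 0.132. Myom2 passed that filter through the Dahl arrays and those of SHR at 6 weeks. Both SHR values at 4 weeks lay within the background range, so the size of the SHR age difference is uncertain. The interaction was -1.30 (SE 0.62, adjusted p = 0.580). For Synpo2l the corresponding values were 0.32 in Dahl (SE 0.63, adjusted p = 0.967) and -0.82 in SHR (SE 0.63, adjusted p = 0.677), and the ages overlapped in Dahl. Its interaction was 1.14 (SE 0.90, adjusted p = 0.824).

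A wider set of 100 striated muscle genes gave 89 that could be matched, 60 from a skeletal muscle list and 29 from a list for heart and slow muscle. Of these, 9 were called higher in Dahl (10.1%, against 10.6% of all probe sets), 30 lower (33.7%, against 24.2%) and 50 were not called, with a median difference of -0.066. The share of higher calls was thus near that of the array as a whole, and so was the median, but signal level was not matched. Of the 89, 73 stayed below 4 on every array. Among those were 29 of the 30 lower calls but only 1 of the 9 higher calls. Of all probe sets, 0.193% of the 7761 dimmest were called higher, against 21.4% of the 7761 brightest. The array-wide share is therefore not a matched yardstick for a list that is mostly dim. The other higher calls all came from genes that did not stay below 4. All 30 lower calls were smaller than 0.5. Of the 89, 7 were called higher by 1 or more, a larger share than the 2.5% of all probe sets that were. Every Dahl value lay above every SHR value for 7 of the 89, against 8.15% of all probe sets. Every Dahl value lay below for 61, against 42.1% of all probe sets and 87.7% of the 7761 dimmest. Leaving out 1 array at a time gave 6 to 12 higher calls, and 8 to 41 calls in both directions against 39, with the fewest without SHR replicate 2 at 6 weeks. The 73 dim genes include Myod1, Myog and Myf6, the transcription factors that drive skeletal muscle, and Ttn.

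The 9 higher genes are led by Ryr1, the calcium release channel of the skeletal muscle sarcoplasmic reticulum. It was at 5.97 and 6.85 in Dahl at 6 weeks and at 5.95 and 6.29 in Dahl at 4 weeks, against 3.13 and 2.86 in SHR at 6 weeks and 2.86 and 3.13 in SHR at 4 weeks. The groups did not overlap, and the difference was 3.27 (SE 0.23, adjusted p = 0.00495). Pygm, the muscle glycogen phosphorylase, was at 5.87 and 6.79 in Dahl at 6 weeks and at 5.73 and 5.15 in Dahl at 4 weeks, against 3.01 and 3.23 in SHR at 6 weeks and 2.89 and 2.11 in SHR at 4 weeks. That is a difference of 3.07 (SE 0.31, adjusted p = 0.00828), and it was 1.45 when the 3 Pygm probe sets were averaged, 1 of which did not separate the strains (0.18, adjusted p = 0.295). All 8 SHR values of Ryr1 and Pygm lay within the background range of 1.58 to 3.70, so the SHR levels were not told apart from background and the size of these differences is uncertain. Both genes kept their calls without any single array and under each alternative run, of which the filter on dim probe sets adds nothing, since they passed it through the Dahl arrays alone.

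Cox7a1, a cytochrome c oxidase subunit of heart and skeletal muscle, was at 6.61 and 7.25 in Dahl at 6 weeks and at 5.53 and 5.92 in Dahl at 4 weeks, against 4.57 and 5.12 in SHR at 6 weeks and 3.78 and 3.37 in SHR at 4 weeks. The difference was 2.12 (SE 0.23, adjusted p = 0.00921). The SHR value of 3.37 lay within the background range and that of 3.78 just above it, so the size of this difference is uncertain. As for Myom2, both rats aged 6 weeks were above both aged 4 weeks in each strain, but the age difference did not pass (1.20 in Dahl, adjusted p = 0.400, and 1.27 in SHR, adjusted p = 0.152). Ankrd1, a stress-responsive ankyrin repeat protein of heart muscle, was at 6.44 and 6.67 in Dahl at 6 weeks and at 6.58 and 6.32 in Dahl at 4 weeks, against 5.84 in both SHR rats at 6 weeks and 4.75 and 4.69 in SHR at 4 weeks. It differed by 1.22 (SE 0.080, adjusted p = 0.00422), and its dimmer probe set by 0.90 (adjusted p = 0.0115). Both genes kept their calls under every alternative run.

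The remaining higher calls were Ldb3, Hspb2, Tnnc1, Ttn and Lmod2, named because so few genes rose and after their values were seen. Ldb3, a Z-disc protein, was at 6.51 and 7.60 in Dahl at 6 weeks and at 6.68 and 6.03 in Dahl at 4 weeks, against a mean of 4.89 in SHR at 6 weeks and 4.61 and 4.73 in SHR at 4 weeks (difference 1.92, SE 0.29, adjusted p = 0.0164). The call was lost without SHR replicate 2 at 4 weeks (adjusted p = 0.0511) or either SHR rat at 6 weeks (0.0595 and 0.0581), and 5 dimmer Ldb3 probe sets did not pass. With all 6 probe sets averaged the difference was 0.67 (adjusted p = 0.0466). Tnnc1, the troponin C of slow and heart muscle, was bright in all rats, at 11.92 to 12.62 in Dahl and 10.30 to 12.05 in SHR (1.02, SE 0.13, adjusted p = 0.0126). It missed the threshold without SHR replicate 2 at 6 weeks (adjusted p = 0.0508).

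Hspb2, a small heat shock protein of muscle, differed by 1.43 (SE 0.27, adjusted p = 0.0245), with 4.78 to 5.46 in Dahl and 3.10 to 4.05 in SHR. Its lowest SHR value lay within the background range, so the size of that difference is uncertain. The call was lost on leaving out Dahl replicate 1 or 2 at 4 weeks (adjusted p = 0.0603 and 0.0730), Dahl replicate 2 at 6 weeks (0.0640) or SHR replicate 2 at 4 weeks (0.0708). The giant sarcomere protein Ttn was dim, at 2.52 to 3.50 in Dahl and 1.98 to 2.56 in SHR (0.68, SE 0.060, adjusted p = 0.00736), within the background range in both strains. Lmod2, which nucleates actin filaments in heart muscle, overlapped between the strains (0.56, SE 0.11, adjusted p = 0.0283), and its call was lost on leaving out either rat of Dahl or SHR at 4 weeks or of SHR at 6 weeks, with adjusted p-values from 0.0517 to 0.0885. A fit on strain alone, without age, ended the calls of Tnnc1, Ttn and Lmod2 (adjusted p up to 0.144, 0.110 and 0.219 over the alternatives).

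**Figure D3:**
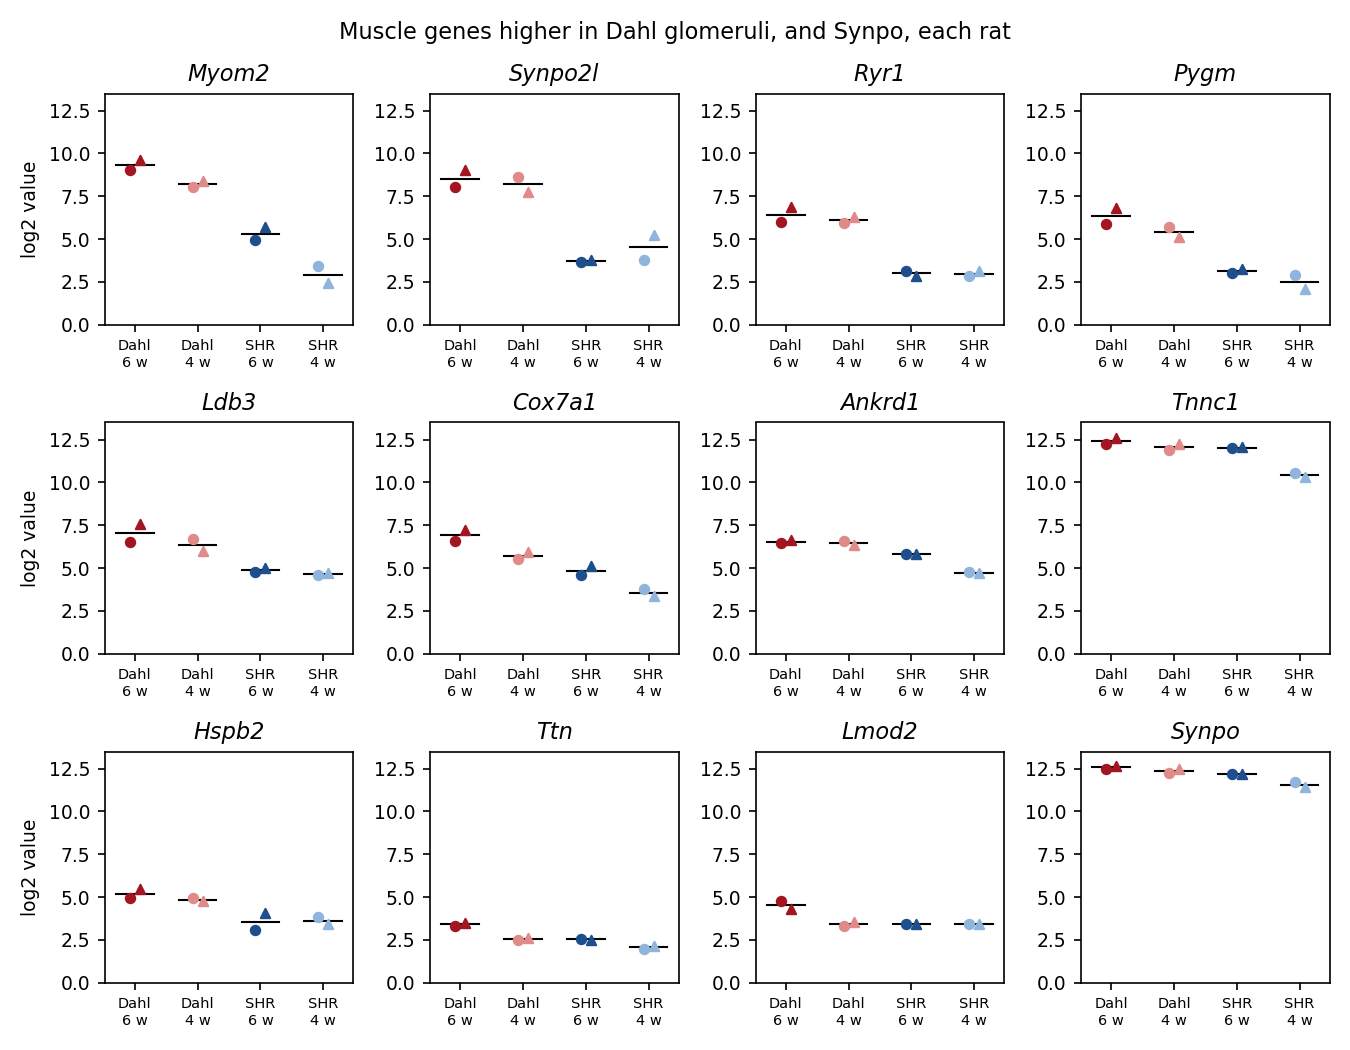
The log2 value (vertical axes) of Myom2, Synpo2l, the 9 further muscle genes called higher in Dahl and the podocyte gene Synpo in each rat, by strain and age, with circles for replicate 1, triangles for replicate 2 and lines at the group means. Ryr1 and Pygm lie between 2.11 and 3.23 in all 4 SHR rats and above 5 in all 4 Dahl rats, while Tnnc1 and Ankrd1 are higher in SHR at 6 weeks than at 4 weeks.

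The lower calls were small. Those named by the rule were the fast myosin heavy chains Myh2 (-0.15, SE 0.015, adjusted p = 0.00836) and Myh4 (-0.27, SE 0.038, adjusted p = 0.0143), the potassium channel Kcnj2 (-0.11, SE 0.018, adjusted p = 0.0194) and Pln (-0.30, SE 0.051, adjusted p = 0.0203), the regulator of the cardiac calcium pump. Their values ran from 2.32 to 2.93 in Dahl and from 2.41 to 3.46 in SHR. Leaving out either SHR rat at 6 weeks took Myh4 to adjusted p-values of 0.0507 and 0.0568, and quantile normalization took Kcnj2 to -0.041 (0.115) and Pln to -0.22 (0.0685). The Kcnj2 call was also lost without Dahl or SHR replicate 2 at 4 weeks or either SHR rat at 6 weeks (adjusted p = 0.0568 to 0.0693). The Pln call was also lost without either Dahl rat at 4 weeks, Dahl replicate 2 at 6 weeks or either SHR rat at 6 weeks (0.0520 to 0.0637), in a fit on strain alone (0.0666), by the methods' t-test after adjustment (0.0853) and with its probe sets averaged (-0.13, adjusted p = 0.105). Myh1 was the exception in level: its main probe set lay at 11.60 to 12.44 in Dahl and 12.03 to 12.53 in SHR and was not called (-0.34, adjusted p = 0.328). Of the 4 dimmer ones 1 was called lower (-0.88, SE 0.13, adjusted p = 0.0163), with 8.44 to 9.31 in Dahl and 9.56 to 10.02 in SHR. A probe set shared by Myh2, Myh1 and Myh8 lay at 2.88 to 2.97 in Dahl and 3.11 to 3.16 in SHR, so the probe sets disagree on whether this myosin was present, and the array annotation that names the bright ones Myh1 may not hold.

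By age, 2 of the 89 genes passed in SHR, where 2.42% of all probe sets did, and both were higher at 6 weeks: Tnnc1 by 1.60 (adjusted p = 0.0305) and Ankrd1 by 1.12 (adjusted p = 0.0237). Tnnc1 missed the threshold when any 1 of 6 arrays was left out, all but the Dahl rats at 6 weeks, and Ankrd1 when any SHR array was, with adjusted p-values up to 0.147 and 0.122. For the interaction 0 of the 89 passed in limma, where 0.519% of all probe sets did. At an unadjusted p under 0.05 there were 4 above and 2 below 0, and the share of all probe sets at that threshold was not counted.

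The main probe sets of relatives of the pair differed by less than 1. Myom1, the other myomesin of the M-band, was at 2.20 to 2.23 in Dahl and 2.27 to 2.42 in SHR (-0.11, SE 0.031, adjusted p = 0.0516), and Obsl1, a cytoskeletal linker protein, was at 3.96 to 4.09 in Dahl and 3.99 to 4.02 in SHR (0.0054, adjusted p = 0.876). The other Obsl1 probe set lay at 3.46 to 4.78 in Dahl and 3.17 to 3.63 in SHR (0.78, SE 0.27, adjusted p = 0.0716). Myom3 was not matched. Synpo, the podocyte member of the synaptopodin family, was at 12.50 and 12.64 in Dahl at 6 weeks and at 12.26 and 12.47 in Dahl at 4 weeks, against 12.20 and 12.17 in SHR at 6 weeks and 11.71 and 11.41 in SHR at 4 weeks. It was higher in Dahl by 0.59 (SE 0.089, adjusted p = 0.0164), a call lost without Dahl replicate 2 at 4 weeks (adjusted p = 0.0516) or either SHR rat at 6 weeks (0.0567 and 0.0618). A dimmer Synpo probe set lay at 7.49 to 8.02 in Dahl and 5.14 to 6.53 in SHR, with no overlap and a larger difference (1.84, SE 0.31, adjusted p = 0.0203), and another did not pass (-0.081, adjusted p = 0.101). Synpo2, its smooth muscle relative, differed by -0.052 (adjusted p = 0.443).

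Lists of markers of other cell types were counted against the 10.6% of all probe sets called higher and 24.2% called lower in Dahl. These shares are not matched on signal: of the 7761 brightest probe sets, 21.4% were called higher and 13.1% lower. Of 27 smooth muscle and pericyte markers, 15 were higher and 3 lower in Dahl, with a median of 0.59, and their summed linear signal was 13210 to 17310 in Dahl and 8143 to 11420 in SHR. The rule named Des, the intermediate filament of muscle and mesangial cells (1.68 higher, adjusted p = 0.00832), Sncg (1.43, adjusted p = 0.00759), the actin-binding Tagln (1.20, adjusted p = 0.00483) and the myosin kinase Mylk (0.84, adjusted p = 0.00874). Of 24 proximal tubule markers, 0 were higher and 4 lower, which is 16.7%. That is below the share of all probe sets but above the 13.1% of the brightest ones, and these markers had a median value of 10.86. Their median difference was -1.03, with sums of 29420 to 87010 in Dahl and 99010 to 127300 in SHR. Of 12 podocyte markers, 5 were higher and 0 lower (median 0.36, sums 27120 to 39410 in Dahl and 21870 to 28880 in SHR). At an unadjusted p under 0.05, limma gave 0 higher and 8 lower tubular markers and 6 higher and 0 lower podocyte markers. The shares above are at the adjusted threshold, and those at the unadjusted one were not counted. The part of these cell types in the Myom2 and Synpo2l values was not tested. For skeletal muscle fibres, the defining markers Ckm, Acta1, Mb and Tnnt3 were at 2.22 to 2.66 in all 8 rats, and the summed linear signal of the 8 muscle genes was 40.0 to 41.1 in Dahl and 42.4 to 43.3 in SHR.

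**Figure D4:**
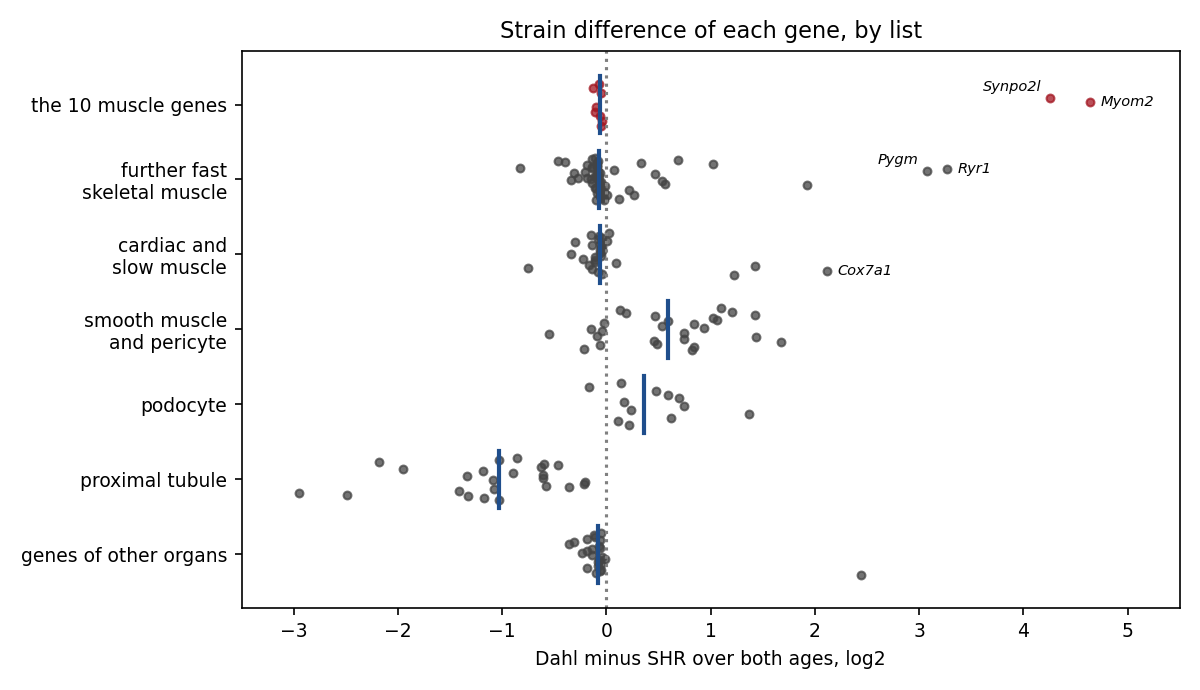
The difference of Dahl minus SHR over both ages on the log2 scale (horizontal axis) of each measured gene in 7 lists (rows), with blue lines at the list medians and a dotted line at 0. Myom2 and Synpo2l lie at 4.64 and 4.25, apart from the other 8 muscle genes (-0.12 to -0.044), and the medians of the smooth muscle (0.59) and proximal tubule lists (-1.03) lie on opposite sides of 0.

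Fibroblast and renal capsule markers gave 5 higher and 2 lower of 18, with a median of 0.12. Their sums overlapped, at 10580 to 12900 in Dahl and 11380 to 12750 in SHR. The rule named Ogn, a small matrix proteoglycan (4.40 higher, adjusted p = 0.00173), and the collagen chain Col1a1 (2.64, adjusted p = 0.00378). It also named Fmod (0.63, adjusted p = 0.00785) and Aspn, which was lower in Dahl (-0.32, adjusted p = 0.0108). Leukocyte markers gave 8 higher and 6 lower of 19, peripheral nerve markers 2 higher and 0 lower of 10, and adipocyte markers 0 higher and 5 lower of 13, where 10.6% of all probe sets were called higher and 24.2% lower. Of the lower calls, 5 of 6 among leukocyte markers and 3 of 5 among adipocyte markers were of genes that stayed below 4 on every array. At an unadjusted p under 0.05, limma gave 2 higher and 5 lower nerve markers and 0 higher and 7 lower adipocyte markers. The share of all probe sets at that threshold was not counted, so these counts have no yardstick.

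Myom2 and Synpo2l were not each other's closest match across the 8 arrays. Likeness was measured as the root mean square distance between log2 profiles, each centred on its own mean, over the 14216 other genes. It is a description, and a large strain difference alone brings profiles close. Closest to Myom2 were Bmp6 (0.556), a ligand of the bone morphogenetic protein family, Hjv (0.692), the co-receptor hemojuvelin, Ifgga2l1 (0.741), Mamdc2 (0.782) and the neuronal pentraxin Nptx1 (0.825). Synpo2l ranked 30 at 1.38. Closest to Synpo2l were Ogn (0.586), Ryr1 (0.719), Mamdc2 (0.724), Hhip (0.787), which binds hedgehog ligands, and Hjv (0.800), with Myom2 ranking 43. Of the muscle genes on the fixed lists, only Ryr1 stood among the 5 closest of either.

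The genes next to the pair on their chromosomes were compared, 5 protein-coding genes on each side in the order of the RefSeq annotation of GRCr8. Around Myom2, 6 of 10 were measured, and their differences lay between -0.28 and 0.92. Angpt2, an angiopoietin that opposes vessel stabilization, was higher in Dahl by 0.92 (SE 0.17, adjusted p = 0.0249), with 6.52 to 7.59 in Dahl and 5.51 to 6.91 in SHR. Cln8 was lower by 0.28 in Dahl (adjusted p = 0.0488), and Dlgap2 differed by -0.064 (adjusted p = 0.0394). The Angpt2 call was lost on leaving out Dahl replicate 2 at 6 weeks or any 1 SHR array (adjusted p = 0.0510 to 0.0799), and the Cln8 call on leaving out any 1 array but SHR replicate 2 at 6 weeks (0.0840 to 0.129).

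Around Synpo2l, 9 of 10 were measured. Myoz1, the neighbouring gene and itself a Z-disc protein of fast muscle, was at 6.31 and 6.87 in Dahl at 6 weeks and at 6.31 and 6.61 in Dahl at 4 weeks, against 5.99 and 6.11 in SHR at 6 weeks and 6.03 and 6.11 in SHR at 4 weeks. The strains did not overlap, but the difference of 0.46 (SE 0.15) had an adjusted p of 0.0615, and it passed without Dahl replicate 1 at 6 weeks (0.60, adjusted p = 0.0239). Sec24c, a coat protein of secretory vesicles on the other side, was higher by 0.28 (SE 0.062, adjusted p = 0.0330), and lost that call on leaving out any 1 of 6 arrays (adjusted p = 0.0556 to 0.0989), with those of Dahl replicate 1 at 6 weeks and SHR replicate 1 at 4 weeks the exceptions. None of the 15 measured neighbours differed by as much as 1 on the log2 scale.

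**Figure D5:**
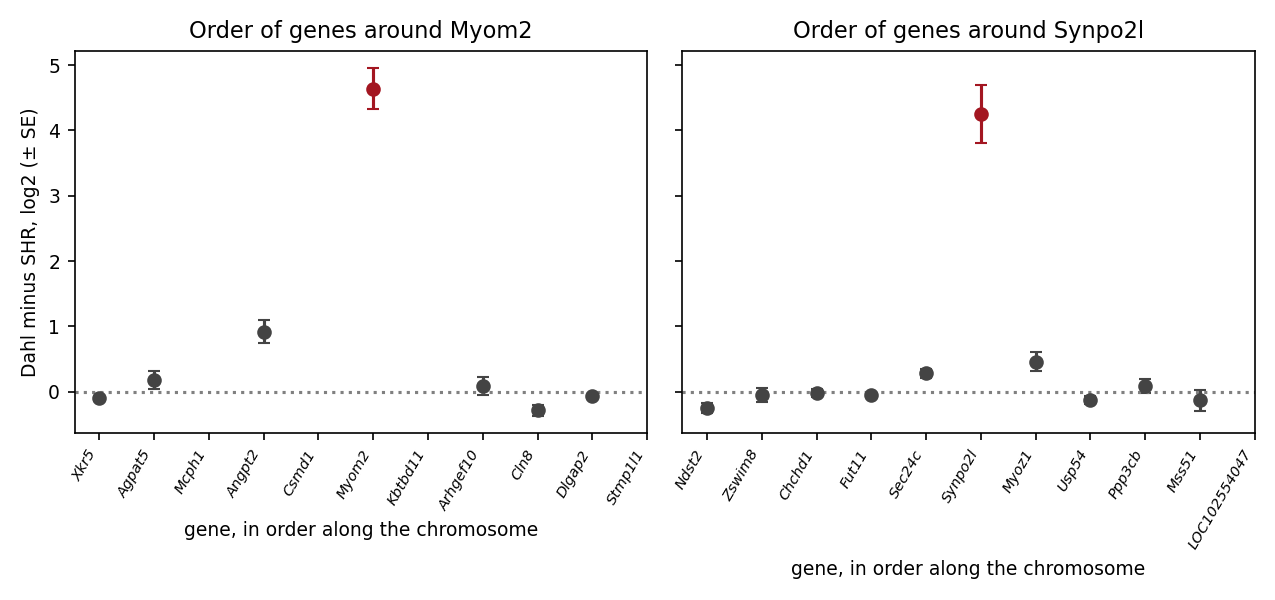
The difference of Dahl minus SHR over both ages on the log2 scale with its standard error (vertical axis) for Myom2 (left) and Synpo2l (right) and their 5 protein-coding neighbours on each side in chromosomal order (horizontal axis, not to scale). Names with no point were not matched on the array. The pair lies at 4.64 and 4.25, and the highest neighbours are Angpt2 at 0.92 and Myoz1 at 0.46.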

How the data were processed

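Glomerular RNA of 8 rats was measured on Affymetrix rat genome arrays. The deposited log2 values were used unchanged. They are 1 value per probe set and array, made by the authors with background correction and between-array normalization. The submitters' processing notes name RMA and GCRMA without versions, and do not tie either to these values. In these values dim probe sets lay low and varied little between rats, and small shifts were called there. The part of the correction in this was not tested. After removal of 57 control probe sets, 31042 of 31099 entered the tests. Names came from the array annotation, which gave several genes for 436 probe sets and none for 9780, and those were not named.

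The 4 group means were fitted with limma 3.58.1 in R 4.3.3 (4 residual degrees of freedom), and p-values were adjusted by Benjamini-Hochberg over all probe sets at a threshold of 0.05. GEO's labels call the rats biological replicates. With 2 rats per group, their number limits the precision. The scripts were tested on simulated data. Alternatives were another variance model, quantile normalization, median centring, other probe set choices, a filter on dim probe sets, the replicate number as a block, strain without age, the methods' t-test, and each array left out.

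The genes and the lists were chosen with earlier results of these data known. The rule named the 10 genes, their families, up to 4 genes of each list with the smallest p among those passing without overlap between strains, the 5 most alike profiles and the 5 neighbours on each side. Promoters and gene order are from RefSeq, build GRCr8.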

Additional observations from a re-analysis of the deposited data

Results flagged for a closer look

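Among 20 sets of 4 rats (10 genes in each strain), 2 held a rat whose gap to the nearest of the other 3 took up most of the range of the set, where chance alone flags about 1 in 20. Both were SHR replicate 2 at 4 weeks. Synpo2l was at 5.25 in that rat and at 3.65 to 3.80 in the other 3 SHR rats, and the gap was 0.904 of the range. Acta1 was at 2.41 in the same rat and at 2.38 to 2.39 in the others, a gap of 0.922 of a range that lies wholly at the low end of the scale.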

How the results depend on the processing

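Dim probe sets limit the results on the 8 low genes, whose strain differences are smaller than 0.13. On the whole array, 10787 of 31042 probe sets were called over both ages in the main fit. With quantile normalization 4740 were called, and with median centring 15888. Under these runs the counts over both ages below moved in the same direction as those of the array. Over both ages 5 of the 8 were called, and 8 with the variance modelled on signal, 8 with median centring, 8 by the methods' t-test unadjusted, 2 with the probe sets of a gene averaged, 0 with quantile normalization and 0 to 3 without 1 array. At 4 weeks 1 was called, and 7 with the variance modelled on signal, 0 with quantile normalization and 0 to 1 without 1 array. At 6 weeks 0 were called, and 5 with the variance modelled on signal. For age in SHR, 0 of 10 passed, and 1 (Myom2) with dim probe sets left out. That filter left none of the 8, so it gives no strain count for them. Of the 89 further genes 39 were called, and 61 with the variance modelled on signal, 15 with quantile normalization, 60 with median centring, 10 with the filter, 61 by the unadjusted t-test and 8 to 41 without 1 array. The higher calls among them stayed between 6 and 12 in every alternative, against 9.

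Quantile normalization turned Ckm to 0.0055, Acta1 to 0.011, Tnnc2 to 0.013 and Actn3 to 0.0082, and moved the median of all probe sets to -0.0054, against -0.053. Of the probe sets called in either direction, 47.7% were then higher in Dahl, against 30.4% in the main fit and 22.0% with median centring. The Synpo2l age difference in Dahl ranged over -0.20 to 0.84 without 1 array, with -0.20 without replicate 2 at 6 weeks and -0.12 without replicate 2 at 4 weeks. Over both ages Myom2 stayed between 4.40 and 4.89 and Synpo2l between 3.89 and 4.62 in all 18 alternatives. Only quantile normalization, median centring and leaving out an array could move these values. The other runs alter the test, the probe sets tested or the choice among probe sets, and each of these genes has 1. The methods' t-test after adjustment and the fit on strain alone ended the Tagln call (adjusted p up to 0.0651). The causes were not tested.

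In the labels, replicates of different groups share only a number (correlations of deviations -0.225 to 0.236). Whether they were handled together is not stated. With the replicate block 5598 probe sets were called, against 10787, with 2 of the 8 low genes over both ages and 0 at 4 weeks, and 18 of the 89 further genes, 9 of them higher. The block took the SHR age differences of Tnnc1 and Ankrd1 to adjusted p-values of 0.0630 and 0.0579, and the strain differences of Ckm, Mb, Tnnt3, Lmod2 and Sec24c to 0.0818, 0.0738, 0.0576, 0.0541 and 0.0623, and brought that of Myoz1 to 0.0495.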
